A study of Mus musculus with 24 samples.

Results

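The livers of Rab30;Cpt2 double floxed controls (ff;ff) were compared with the livers of wild-type littermate controls of the whole-body Rab30 knockout line (Rab30 Ctrl). These are the 2 control groups of the series, chosen by their labels, with 4 libraries each and 8 of the 24 libraries in all. Mice of ff;ff carried loxP sites around exon 4 of Rab30 and a floxed Cpt2 gene, had no Cre, and were littermates of the liver-specific Rab30;Cpt2 double knockouts (DKO). Mice of Rab30 Ctrl carried wild-type alleles of both genes and were littermates of mice without Rab30 in any tissue (Rab30KO). Neither group lacked a gene. All 8 mice were males of a strain given as C57/BL6J, about 8 to 10 weeks of age, and their livers were taken after a 24 h fast. The comparison therefore measured how far apart the 2 sets of controls lay. Breeding colony, litter, floxed alleles and any grouping of the RNA extractions or sequencing runs differ together between the groups and cannot be told apart. Nothing in the labels says which mice shared a litter.

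Total RNA of each liver was sequenced, and reads were counted on each gene of GRCm38. Levels are given in CPM, the usual depth-scaled count, taken here relative to library totals scaled by the trimmed mean of M-values over all 24 libraries. The 8 libraries held between 13230854 and 20401129 counts, so that 3 counts, the floor used here, corresponded to between 0.147 and 0.268 CPM. Albumin and the other hepatocyte markers summed to between 101799 and 132071 CPM in ff;ff and between 100802 and 126889 CPM in Rab30 Ctrl. Markers of pancreatic acinar cells, adipocytes and skeletal muscle summed to at most 3.68 CPM in any of the 8 libraries. The label of liver was therefore borne out by the markers in every library.

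Mice kept in separate colonies differ in the alleles that each colony has fixed by chance, and colonies of C57BL/6 origin can carry stretches from other strains beside an engineered allele. A region well known to vary is the Ifi200 cluster on chromosome 1. Its related genes encode sensors of DNA in the cytosol and nucleus, are induced by interferon, and differ in number and sequence between strains. The targeted genes lie on other chromosomes, Rab30 on chromosome 7 and Cpt2 on chromosome 4. Fasted liver is also sensitive to husbandry. Its sterol synthesis genes follow the supply of cholesterol, its cytochrome P450 genes follow xenobiotic and hormonal signals, and its resident macrophages, the Kupffer cells, follow the microbial products that reach the liver in portal blood.

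The targeted genes were examined first. Rab30, a small GTPase of the Golgi, was at 26.4, 45.5, 45.3 and 31.5 CPM in the libraries ffff238, ffff240, ffff242 and ffff248. In WT951, WT952, WT281 and WT221 its level was 29.8, 11.2, 6.53 and 8.45 CPM. WT951 lay among the floxed livers and the other 3 wild-type livers lay below all of them. The log2 fold change of ff;ff against Rab30 Ctrl was 1.40 (standard error 0.44) with an adjusted p = 0.189 from edgeR's quasi-likelihood test, and without WT951 it was 2.08 with an adjusted p of 0.00725 from edgeR. DESeq2's Wald test and limma-voom called Rab30 with all 8 libraries. Cpt2, which encodes an enzyme of mitochondrial fatty acid uptake, was at 131, 142, 135 and 129 CPM in ff;ff and at 191, 203, 155 and 187 CPM in Rab30 Ctrl. The groups did not overlap, at -0.47 on the log2 scale (standard error 0.14), but the adjusted p from edgeR of 0.159 missed the threshold, and DESeq2's Wald test called it. Of the 36 genes tested within 5 Mb of Rab30 on chromosome 7, 0 passed the thresholds given in the next paragraph, and of the 54 within 5 Mb of Cpt2 on chromosome 4, 1 did. Over all genes tested 0.949% passed, so these counts lie near the background and are no result about either region. The gene near Cpt2 was Dab1, which encodes an adaptor of reelin signalling, and its counts were 0, 0, 1 and 1 in ff;ff and 14, 37, 40 and 32 in Rab30 Ctrl. Dab1 was at least 8.50-fold lower in ff;ff, taking 3 counts in each floxed library as the floor.

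The thresholds were an adjusted p below 0.05 in edgeR's test together with a change of 1.2-fold or more, and 129 of the 13587 genes tested (0.949%) passed both between ff;ff and Rab30 Ctrl. Of these, 100 were lower in ff;ff (0.736% of the genes tested) and 29 were higher (0.213%). The median log2 fold change over all genes tested was 0.00. At an unadjusted p under 0.05 with the same fold, 692 genes were higher and 1108 lower, in all 13.2% of the genes tested, with 8.15% lower. In each of the 129 genes the 4 floxed and the 4 wild-type livers did not overlap, as in 1145 (8.43%) of all genes tested. Protein-coding genes made up 110 of the 129, and pseudogenes 12 (9.30%, against 4.05% of the genes tested). With 1 library left out the count ranged from 53 to 177, and it fell by more than 1.5 times without ffff240 (76), ffff242 (56), ffff248 (78), WT952 (60) or WT281 (53). In 37 of the 129 genes the call was kept whichever library was left out, and in none did the direction change under any alternative tried. Other tests called more genes. DESeq2's Wald test called 565 of 13587 genes, limma-voom 322 of 13587 and a fit over all 24 libraries 302 of 14584. Counts from these tests in the lists below have those totals as their background.

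Over all genes tested, the difference between the 2 groups took up 30.7% of the variance of log2 CPM among the 8 libraries. The exact one-sided permutation test gave p = 0.0286, the smallest that the 35 splits of 8 libraries allow. The share was 44.4% over the 500 most variable genes and between 29.8% and 35.8% with any 1 library left out. On the first principal component the floxed livers lay between 15.4 and 28.4. Of the wild-type livers, 3 lay between -30.3 and -23.8 and WT221 at -5.66, so WT221 was the wild-type library nearest to the floxed ones. Without WT221, 177 genes passed, 114 of them lower in ff;ff.

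**Figure D1:**
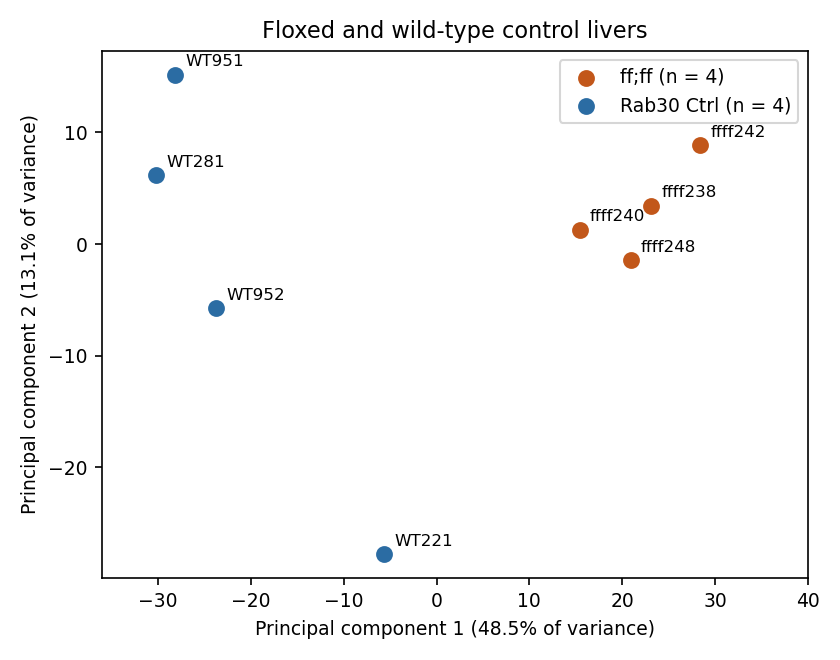
Principal components 1 (48.5% of variance) and 2 (13.1%) of the log2 CPM of the 500 most variable genes, 1 point per library, ff;ff in orange and Rab30 Ctrl in blue (n = 4 each). The floxed livers sit together at 15.4 to 28.4 on component 1, and WT221, at -5.66, is set apart from the other wild-type livers.

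The Ifi200 cluster held the densest block of differences. The reference sequence before 7 of their start sites is shown here because 8 neighbouring genes of the cluster passed the thresholds, all lower in ff;ff. Of these 8 genes, 7 had an entry among RefSeq promoters of GRCm38.p6, and Ifi204 had none. The interferon-stimulated response element core (GAAA, any 2 bases, then GAAA), searched on both strands in the 250 bases before the start, was found in 6 of these 7 genes and in 334 of the 9976 genes tested that had a promoter entry (3.35%). The lines give the last 100 bases before each start, 5′ to 3′ on the gene's own strand, with the match in capitals. These are reference letters and not those of the mice studied here.
Mndal (chr1:173880188-173880287, minus): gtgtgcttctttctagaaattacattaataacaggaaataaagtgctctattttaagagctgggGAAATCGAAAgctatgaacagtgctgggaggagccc
Ifi203 (chr1:173942493-173942592, minus): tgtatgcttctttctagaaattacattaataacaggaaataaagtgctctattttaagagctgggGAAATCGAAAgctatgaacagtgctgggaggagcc
Ifi208 (chr1:173673565-173673664, plus): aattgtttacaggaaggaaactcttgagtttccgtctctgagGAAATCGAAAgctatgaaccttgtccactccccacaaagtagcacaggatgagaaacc
Ifi213 (chr1:173599273-173599372, minus): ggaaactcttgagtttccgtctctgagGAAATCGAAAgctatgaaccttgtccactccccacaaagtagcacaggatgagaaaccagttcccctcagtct
Ifi207 (chr1:173741810-173741909, minus): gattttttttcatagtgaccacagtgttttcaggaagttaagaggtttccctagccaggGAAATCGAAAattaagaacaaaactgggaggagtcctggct
Ifi211 (chr1:173913047-173913146, minus): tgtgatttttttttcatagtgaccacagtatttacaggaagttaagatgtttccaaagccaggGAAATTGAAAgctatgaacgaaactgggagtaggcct
Ifi209 (chr1:173630759-173630858, plus): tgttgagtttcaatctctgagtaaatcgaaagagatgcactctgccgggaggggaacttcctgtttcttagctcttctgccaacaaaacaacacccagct

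In all 6 genes the match read in the direction of the gene. Mndal and Ifi203 shared an unbroken run of 96 of these 100 bases, and Ifi208 and Ifi213 a run of 85. In the other pairs of these 6 genes the longest shared run was 11 to 23 bases, and Ifi209 was not compared. Mndal and Ifi203 have another listed start each. That of Mndal holds the motif on the other strand, and that of Ifi203 has no match. A match is a description of letters and not evidence that a factor binds there.

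Mndal, a member of the family of DNA sensors with a pyrin and a HIN domain, was nearly absent from ff;ff. It had 0, 0, 2 and 0 counts in ff;ff and 146, 285, 139 and 154 counts in Rab30 Ctrl. With 3 counts per floxed library as the floor, its level was at least 48.4-fold lower in ff;ff (adjusted p = 7.81e-05, edgeR). Ifi213 followed with 0, 0, 0 and 2 counts against 35, 36, 30 and 30, at least 8.96-fold lower (adjusted p = 0.00387, edgeR). Both genes had at most 2 counts in any floxed liver.

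Ifi204, the mouse gene most often compared with the human DNA sensor IFI16, was at 1.25, 1.33, 1.06 and 1.67 CPM in ff;ff. In Rab30 Ctrl it was at 8.67, 9.25, 10.9 and 10.3 CPM, which amounts to -2.89 on the log2 scale (standard error 0.24, adjusted p = 0.000201 from edgeR). Ifi203 was at 2.59, 3.19, 2.20 and 3.84 CPM against 15.7, 11.9, 12.7 and 10.5 CPM, or -2.11 on the log2 scale (standard error 0.24, adjusted p = 0.00306 from edgeR). Every wild-type library lay well above every floxed one for both genes. Ifi207 (log2 fold change -1.83), Ifi209 (-2.70), Ifi208 (-2.40) and Ifi211 (-2.32) also passed the thresholds. The calls of Mndal, Ifi213, Ifi204, Ifi203 and Ifi207 were kept with any library left out. That of Ifi209 was lost without ffff248, and those of Ifi208 and Ifi211, both at no more than 1.37 CPM in any of the 8 libraries and at 1 to 7 counts in the floxed ones, were lost without any 1 library, except that Ifi208 kept its call without WT952. GENCODE draws Mndal from 173849126 to 173942491 on the minus strand, across the positions of Ifi203 (173920407 to 173942672), and the counting is not stated to use strand, so counts of overlapping genes in this block are uncertain.

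Of the 14 genes that the name pattern for the cluster took, 11 were tested and 8 passed, all lower, beside 0.736% of all genes tested. The median log2 fold change was -2.32 (-2.36 with 8 of 10 passing without Ifi27, which the pattern takes by its name but which lies on chromosome 12). The median stood at the same values with the genes near 0 set to their bounds. Aim2 (log2 fold change -0.38) and Ifi202b (0.70), whose groups overlapped, did not pass, and 3 members were too low to test. Summed over the cluster without Ifi27, the level was 13.3, 13.4, 11.4 and 14.2 CPM in ff;ff and 58.8, 57.9, 60.6 and 50.9 CPM in Rab30 Ctrl. With 1 library left out, between 5 and 7 members passed.

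**Figure D2:**
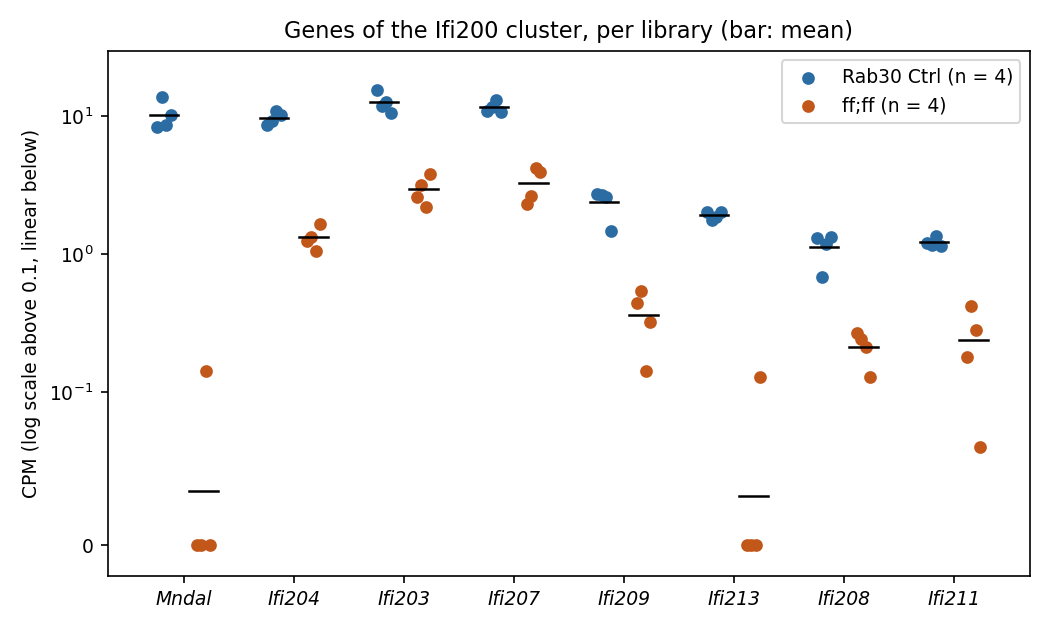
Level of the 8 genes of the Ifi200 cluster past the thresholds, in CPM on an axis that is logarithmic above 0.1 and linear below, 1 point per library and a bar at the group mean (n = 4 each). In each gene the blue points (Rab30 Ctrl) lie above the orange points (ff;ff), and Mndal and Ifi213 are at 0 in 3 of the 4 floxed libraries.

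Genes near the cluster passed as well. Among 10 Mb windows of the genome, 280 held a gene tested, 88 held at least 1 of the 129 genes, 20 held at least 2 and 5 held at least 3. The window of chromosome 1 from 170 to 180 Mb held 15 of its 89 genes tested (16.9%), all lower in ff;ff. Besides the 8 cluster genes they were the pseudogene Ifi203-ps, the Fc receptor genes Fcgr3 and Fcer1g, the lymphocyte receptor gene Cd48, Arhgap30, Dusp12 and Tomm40l. The calls of Fcgr3 and Fcer1g were kept with each library left out. Those of Cd48 and Arhgap30 were lost in 7 of the 8 fits with 1 library left out. Those of Dusp12 and Tomm40l were lost in 5 of these fits and that of Ifi203-ps in 4. Chromosome 1 as a whole held 23 of the 129 genes (2.79% of its genes tested), 20 of them lower. The next window, chromosome 5 from 100 to 110 Mb, held 7 of its 71 genes tested (9.86%), among them Gbp8, Gbp9 and Gbp11 of the interferon-inducible guanylate-binding GTPases. Gbp4, Gbp6 and Gbp10 of the same window were tested and did not pass. Gbp9 and Gbp4 lie within or across the span annotated for Gbp8, so their counts are uncertain, and Gbp11 is annotated as a polymorphic pseudogene. Windows were laid out after the values had been seen.

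Gbp11 was at 2.94, 1.27, 2.69 and 1.79 CPM in ff;ff and at 25.1, 12.04, 52.1 and 12.6 CPM in Rab30 Ctrl, or -3.59 on the log2 scale (standard error 0.53, adjusted p = 0.0156 from edgeR). Its wild-type levels varied widely but stayed above the floxed ones. Gbp9 fell from a mean of 15.5 to 4.07 CPM (log2 fold change -1.94) and Gbp8 from 7.36 to 1.36 CPM (-2.46). The call of Gbp11 was lost without ffff238, ffff242 or ffff248 and with no filter on low counts, that of Gbp9 without ffff238, ffff240, ffff248 or WT281, and that of Gbp8 without all but WT951 and WT221, in a fit over all 24 libraries and with at least 10 counts in every library. Of the 11 Gbp genes tested, on chromosomes 3 and 5, 10 had a negative log2 fold change with a median of -1.94, and these 3 passed. Without WT281 the log2 fold change was -2.96 for Gbp11 and -1.81 for Gbp8. Of 38 other interferon-induced genes, a list that shares Gbp2, Gbp3, Gbp6 and Gbp7 with the Gbp genes, 0 passed, 17 did so at an unadjusted p with the fold threshold, and 37 had a negative log2 fold change (median -0.72), beside 0.949% and 13.2% of all genes tested that passed and that did so at an unadjusted p. DESeq2's Wald test called 4 of the 38 and limma-voom 2, and 1 passed without ffff248, WT951 or WT221. Gbp2, for example, was at 3.75, 2.89, 1.63 and 3.27 CPM in ff;ff and at 5.74, 6.41, 14.5 and 4.29 CPM in Rab30 Ctrl (log2 fold change -1.44, adjusted p = 0.123 from edgeR). The most abundant members, Iigp1 and Stat2, overlapped between the groups, at 67.2 to 280 against 173 to 339 CPM and at 38.0 to 95.7 against 62.1 to 97.6 CPM. The interferon response element core stood upstream of 17 of the 28 members with a promoter entry.

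Of 12 markers of Kupffer cells and macrophages tested, 4 passed the thresholds, all lower in ff;ff. All 12 had a negative log2 fold change, with a median of -1.04, against a median of 0.00 and 0.736% of all genes tested that passed in that direction. Adgre1, which encodes the macrophage antigen F4/80, was at 10.97, 9.22, 8.50 and 13.3 CPM in ff;ff and at 21.1, 36.8, 36.9 and 24.1 CPM in Rab30 Ctrl (log2 fold change -1.52, standard error 0.23, adjusted p = 0.0116 from edgeR). Cd5l, a secreted protein of Kupffer cells, was at 64.6, 39.8, 51.2 and 83.0 CPM against 91.1, 188, 183 and 123 CPM (log2 fold change -1.31, adjusted p = 0.0493 from edgeR). WT951 was the lowest wild-type library for both genes and still above every floxed library.

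Timd4, a receptor for phosphatidylserine on resident Kupffer cells, had a log2 fold change of -1.51, and Csf1r, the receptor that macrophages need to survive, one of -1.12. Of the members that did not pass, Clec4f, which marks Kupffer cells, was at 56.5 to 109 CPM against 126 to 185 CPM (log2 fold change -0.79, adjusted p = 0.116 from edgeR) and Cd68 at 4.76 to 8.33 against 7.52 to 16.1 CPM (-0.85, adjusted p = 0.188). Marco, a scavenger receptor, varied most, at 3.50, 64.3, 7.27 and 28.4 CPM in Rab30 Ctrl and 1.34, 3.32, 3.12 and 6.41 CPM in ff;ff. The sum of the 12 markers was 306, 248, 314 and 452 CPM in ff;ff and 488, 780, 807 and 627 CPM in Rab30 Ctrl, without overlap. In bulk liver, fewer cells of a type and less RNA per cell cannot be told apart. The call of Adgre1 was kept with each library left out. Those of Cd5l and Timd4 were lost without ffff238, ffff240, ffff242, WT952 or WT281, and that of Csf1r without these or WT221, and those of Cd5l and Csf1r also with at least 10 counts in every library. The call of Adgre1 was lost in a fit over all 24 libraries, where 0 of the 12 passed, while DESeq2's Wald test called 8 of them. Without ffff238, ffff240, ffff242, WT952 or WT281, 1 of the 12 passed.

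Other genes of leukocytes were picked out after the values had been seen. Of the 100 lower genes, 33 encode receptors, adhesion molecules or signalling proteins of myeloid cells and lymphocytes, the 4 Kupffer genes among them. Their direction is fixed by this choice, and no test was made of the group. Ptprc, which encodes the leukocyte antigen CD45, was at 8.92, 5.79, 4.32 and 5.51 CPM in ff;ff and at 18.6, 16.8, 20.1 and 12 CPM in Rab30 Ctrl (log2 fold change -1.48). Fcer1g, the shared signalling chain of Fc receptors, was at 1.52, 1.81, 0.921 and 2.37 CPM against 6.08, 12.7, 8.27 and 7.51 CPM (-2.39). The groups were separate in both genes. The call of Fcer1g was kept with each library left out, and that of Ptprc was lost without ffff240, ffff242, ffff248, WT952 or WT281.

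Ciita, the master regulator of MHC class II genes, was at 0.624, 0.362, 0.213 and 0.705 CPM in ff;ff and at 1.32, 5.29, 7.34 and 2.01 CPM in Rab30 Ctrl (log2 fold change -3.08), and its call was lost without any 1 library other than WT951 and WT221 and in a fit over all 24 libraries. Itgal, Cd44, Cybb, Siglec1, Sirpa and Axl fell by between 1.01 and 1.56 on the log2 scale, each with a call lost without at least 4 single libraries, ffff242 and WT281 among them. In a fit over all 24 libraries none of these 6 calls was kept (adjusted p of 0.174 for Cd44, the highest of the 6, edgeR), and that of Axl was also lost with at least 10 counts in every library. Of 4 lymphocyte markers tested, 1 passed (0.949% of all genes tested), the immunoglobulin heavy chain gene Ighm (-1.96, kept only without WT951), and the 23 tested genes of the MHC had a median of -0.34 with 0 passing, 7 past the unadjusted p with the fold threshold and 6 called by DESeq2's Wald test. Without WT221, 4 of the MHC genes passed. Neutrophil markers were too low to test. Of the sinusoidal endothelial markers 0 of 10 passed, with a median of -0.47. Of these, 9 had a negative log2 fold change, 6 were past an unadjusted p with the fold threshold (13.2% of all genes tested) and 3 did not overlap between the groups (8.43% of all genes tested). Their sum was 323, 462, 414 and 387 CPM in ff;ff and 521, 453, 530 and 554 CPM in Rab30 Ctrl, so that ffff240 alone reached the wild-type range. DESeq2's Wald test called 1 of the 10 endothelial markers and 1 of the 10 stellate cell markers. Stab2, a scavenger receptor of these cells, was at 38.2 to 65.8 against 59.7 to 90.8 CPM, and Stab1 was the single member with a positive log2 fold change (0.23), at 50.3 to 120 against 55.0 to 86.8 CPM. Of the stellate cell markers 0 of 10 passed (median -0.45), 9 had a negative log2 fold change and 1 was past an unadjusted p with the fold threshold, with Dcn at 105 to 182 against 126 to 261 CPM. Part of the chromosome 1 block, such as Fcgr3, Fcer1g and Cd48, consists of leukocyte genes, and the part that macrophage markers had in those differences was not tested.

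Of 25 genes of cholesterol synthesis and uptake tested, 24 had a negative log2 fold change with a median of -0.99, 18 were lower at an unadjusted p with the fold threshold (8.15% of all genes tested), and 1 passed after adjustment (0.736% of all genes tested were lower past the thresholds). That gene was Stard4, which encodes a carrier of cholesterol between membranes, at 38.1, 45.6, 19.7 and 29.7 CPM in ff;ff and at 106, 68.4, 78.5 and 120 CPM in Rab30 Ctrl (log2 fold change -1.50, standard error 0.26, adjusted p = 0.0255 from edgeR). Its call was lost without ffff248 or WT281, when 0 of the 25 passed. The number of the 25 that passed was between 0 and 5 with 1 library left out, 3 with limma-voom, 13 with DESeq2's Wald test and 11 in a fit over all 24 libraries.

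Idi1, the isopentenyl diphosphate isomerase, was at 13.6, 25.98, 5.31 and 5.38 against 65.8, 41.2, 27.9 and 55.3 CPM (log2 fold change -1.93, adjusted p = 0.140 from edgeR). Sqle, the squalene epoxidase, was at 7.94, 26.6, 6.87 and 6.66 against 35.2, 36.2, 23.7 and 63.1 CPM (-1.72, adjusted p = 0.162). Library ffff240 was the highest floxed library for Idi1 and Sqle and overlapped the wild-type range for Sqle. Without ffff240 both passed, Idi1 at -2.59 on the log2 scale (adjusted p = 0.0198 from edgeR) and Sqle at -2.49 (adjusted p = 0.00932), when 5 of the 25 genes passed. Summed over the 25 genes, levels were 1638, 2252, 1592 and 1519 CPM in ff;ff and 2436, 2978, 2502 and 3680 CPM in Rab30 Ctrl. Idi1 and Sqle were named after their values had been seen.

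**Figure D3:**
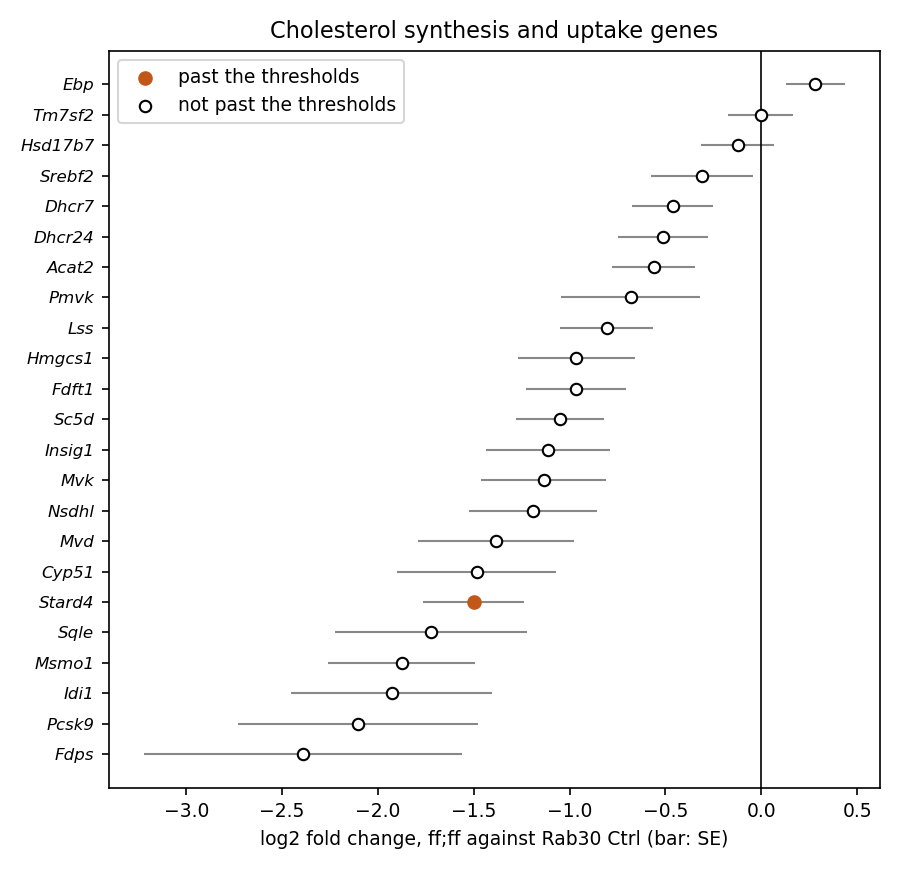
log2 fold change of ff;ff against Rab30 Ctrl for 23 of the 25 genes of cholesterol synthesis and uptake, with bars of 1 standard error from edgeR (4 libraries per group). All but Ebp lie at or below 0, and Stard4, filled, is the gene past the thresholds.

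Drug-metabolising enzymes held some of the most abundant differences. Of 22 xenobiotic genes tested, 3 passed (13.6%, beside 0.949% of all genes tested), all lower in ff;ff and all from the Cyp2c family, whose near-identical copies on chromosome 19 share reads. Cyp2c54 was at 132, 154, 145 and 107 CPM in ff;ff and at 458, 339, 361 and 359 CPM in Rab30 Ctrl (log2 fold change -1.51, standard error 0.17, adjusted p = 0.00311 from edgeR). Cyp2c50 was at 175, 199, 158 and 183 against 515, 349, 535 and 517 CPM (-1.44, adjusted p = 0.00468). Cyp2c29 was at 223, 248, 134 and 276 against 518, 564, 477 and 1002 CPM (-1.56, adjusted p = 0.0294), with a call that was lost without ffff238, ffff240, ffff242 or WT952. The first 2 calls were kept with any library left out.

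Ugt1a9, a glucuronosyltransferase, fell from a mean of 248 to 55.4 CPM (log2 fold change -2.17, standard error 0.25, adjusted p = 0.00311 from edgeR). Hsd3b3 and Hsd3b2, steroid dehydrogenase genes that lie next to each other on chromosome 3, fell by 1.69 and 1.29, and Inmt, a methyltransferase, by 1.88 on the log2 scale. The calls of Ugt1a9 and Hsd3b3 were kept with each library left out, but that of Hsd3b3 was lost in a fit over all 24 libraries (adjusted p = 0.0843, edgeR). The call of Inmt was lost without ffff238, ffff248, WT952 or WT281, and that of Hsd3b2 without any 1 library but ffff238. Both were also lost in the fit over all 24 libraries, that of Inmt with no filter on low counts, and that of Hsd3b2 with at least 10 counts in every library. Gsta4, a glutathione transferase and the single gene of 20 Nrf2 targets tested to pass (5%, beside 0.949% of all genes), was at 14.4 to 20.6 CPM against 35.3 to 40.1 CPM (-1.11). Alad, an enzyme of heme synthesis whose copy number is known to vary between mouse strains, was at 96.4, 114, 57.1 and 108 CPM in ff;ff and at 276, 301, 407 and 201 CPM in Rab30 Ctrl (log2 fold change -1.68, adjusted p = 0.0129 from edgeR). Its call was kept with each library left out. Of 9 genes tested that are known to vary between strains, Alad and Mndal passed (22.2%, beside 0.949% of all genes tested), and the median of the list was 0.06 with 4 of 9 negative.

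A ranking was made of protein-coding genes past the thresholds, without overlap, that averaged 50 or more normalized counts in whichever group was higher. The 10 lowest log2 fold changes among them were those of Mndal, Mme, Rpl34, Rarres1, Rpl21, Ciita, Ifi204, Dsg1c, Gbp8 and Fcer1g. Mme, which encodes the peptidase neprilysin, was at 0.268, 1.21, 0.354 and 0.128 CPM in ff;ff and at 37.7, 20.02, 23.3 and 7.91 CPM in Rab30 Ctrl (log2 fold change -5.44, standard error 0.65, adjusted p = 0.00606 from edgeR), and without ffff240 the fold change was -6.47. Rarres1, a gene induced by retinoids, was at 3.75, 3.98, 1.49 and 1.86 against 45.5, 18.7, 37.2 and 49.9 CPM (-3.79, adjusted p = 0.00144). Dsg1c, a desmosomal cadherin, fell by 2.70, with a call lost in a fit over all 24 libraries. These genes were low in every floxed liver and clearly present in every wild-type liver.

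Of 80 ribosomal protein genes tested, 2 passed, Rpl34 and Rpl21, both lower in ff;ff. That is 2.5% of the list beside 0.949% of all genes tested, and near the background. Rpl34 was at 1.52, 3.86, 2.48 and 3.52 CPM in ff;ff and at 119, 142, 104 and 45.9 CPM in Rab30 Ctrl (log2 fold change -5.16, standard error 0.39, adjusted p = 0.000136 from edgeR). Rpl21 fell by 3.13, and the median over the 80 genes was 0.04. Rpl26, named after its values had been seen, had the highest log2 fold change of the list (3.12, adjusted p = 0.470 from edgeR). It was at 225, 70.1, 135 and 97.5 CPM in ff;ff and at 0.804, 1.22, 0.559 and 57.7 CPM in Rab30 Ctrl, so that WT221 alone lay near the floxed livers. Without WT221 it passed the thresholds, at 7.21 on the log2 scale with an adjusted p of 0.000142 from edgeR. Pseudogenes that may share their reads moved too. The processed pseudogene Gm8730 on chromosome 8 had the smallest adjusted p of all genes tested (3.49e-05, edgeR), with a log2 fold change of -4.47, and Rpl21-ps8 was at least 10.5-fold lower. The bound of Rpl21-ps8 is taken from the mean of 1.09, 1.91, 1.31 and 4.69 CPM in Rab30 Ctrl, to which WT221 gave most. Gene and pseudogene copies of ribosomal proteins cannot be separated reliably by read counts. Adh6-ps1, listed as a transcribed pseudogene, had 0 counts in all 4 floxed libraries and 336, 315, 455 and 71 in the wild-type ones, at least 79.4-fold lower in ff;ff. Its call was lost with no filter on low counts.

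The genes higher in ff;ff were fewer and of mixed function. The 10 highest by the same rule, among genes past the thresholds without overlap, were Obp2a, Cdkn1a, Treh, Lad1, Enpp6, Myom3, Sult5a1, Atp1b1, Cyb561 and Slc25a22. The calls of Myom3 and Cyb561 were lost in a fit over all 24 libraries. With 1 library left out, the call of Myom3 was lost in 5 of the 8 fits and those of Lad1 and Enpp6 in 4. That of Cyb561 was kept in each. Treh, the trehalase gene, was at 9.27, 6.99, 16.1 and 6.02 CPM in ff;ff and at 1.32, 1.37, 1.74 and 2.28 CPM in Rab30 Ctrl (log2 fold change 2.50, standard error 0.35, adjusted p = 0.00719 from edgeR). Sult5a1, a sulfotransferase and the single periportal gene of 15 to pass (6.67%, beside 0.949% of all genes), was at 50.2, 22.8, 35.3 and 48.5 against 9.53, 8.27, 6.90 and 15.0 CPM (1.97, adjusted p = 0.0107). The calls of Treh and Sult5a1 were kept with each library left out, but that of Sult5a1 was lost in a fit over all 24 libraries (adjusted p = 0.0888, edgeR).

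Atp1b1, a subunit of the sodium pump, was at 356, 242, 502 and 259 CPM in ff;ff and at 102, 84.9, 147 and 121 CPM in Rab30 Ctrl (log2 fold change 1.56, adjusted p = 0.0205 from edgeR). Slc25a22 and Slc25a51, which encode mitochondrial carriers of glutamate and of NAD, rose by 1.24 and 1.13 on the log2 scale, the first with a call lost without any 1 library but ffff238 or with at least 10 counts in every library, and the second without WT281. Cdkn1a, the cell cycle inhibitor p21 and a gene that glucocorticoids and stress induce, was at 20.6, 87.3, 98.1 and 47.6 CPM in ff;ff and at 5.05, 13.8, 6.90 and 3.42 CPM in Rab30 Ctrl (3.10, adjusted p = 0.0496 from edgeR). Its call was lost without ffff240, ffff242, ffff248, WT951, WT281 or WT221, with no filter on low counts and with at least 10 counts in every library. The call of Atp1b1 was lost without WT952. Obp2a, an odorant-binding protein gene, was at 7.04, 1.81, 5.88 and 9.10 CPM against 0, 0.245, 0.124 and 0.536 CPM (4.69, adjusted p = 0.0107), and its call was lost with limma-voom. Without WT221 the fold change of Obp2a was 5.44. Ube2u, a gene of ubiquitin conjugation, had 32, 16, 44 and 37 counts in ff;ff and 0 in all 4 wild-type libraries, at least 13.2-fold higher in ff;ff.

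Pathways of the fasting response were examined next. Of 38 genes of fatty acid oxidation and ketogenesis, 0 passed, 6 did so at an unadjusted p with the fold threshold (13.2% of all genes tested), and the median log2 fold change was 0.10 (range -0.79 to 1.504). DESeq2's Wald test and limma-voom called 3 of the 38 each. Cyp4a14, a fatty acid hydroxylase and a strong target of Pparα, was at 7556, 9678, 7841 and 7369 CPM in ff;ff and at 6808, 2236, 2232 and 651 CPM in Rab30 Ctrl, with a log2 fold change of 1.43 and an adjusted p from edgeR of 0.309. Its wild-type levels were spread widely and all lay below the floxed ones. Without WT951, the wild-type library nearest to the floxed ones, Cyp4a14 passed the thresholds, at 2.23 on the log2 scale with an adjusted p of 0.0308 from edgeR. Of 20 gluconeogenesis genes 0 passed (median 0.27), 4 were past the unadjusted p with the fold threshold and 2 were called by DESeq2's Wald test, with Pck1, the enzyme that commits carbon to glucose synthesis, at 4880 to 7283 against 4535 to 5579 CPM.

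Of 19 lipogenesis genes 1 passed, the pyruvate kinase gene Pklr, at 22.2 to 33.3 CPM against 49.2 to 74.3 CPM (log2 fold change -1.12, adjusted p = 0.0237 from edgeR, lost without ffff242, ffff248, WT952 or WT281). Of 19 clock genes 2 passed, Per3 (-1.07) and Bhlhe40 (-0.81), both lower, and the median of the list was -0.06. Of 25 acute phase genes 1 passed, Steap4 (-0.99), while the median was 0.31. The calls of Per3, Bhlhe40 and Steap4 were each lost without at least 5 of the 8 libraries left out singly. Those of Per3 and Steap4 were also lost in a fit over all 24 libraries, those of Steap4 and Bhlhe40 at a 2-fold threshold, and that of Bhlhe40 with at least 10 counts in every library. With 0.949% of all genes tested past the thresholds, a count of 0 in a list of this size is near the background and says nothing about the list. No gene passed among 53 Rab genes (median 0.00), 37 lysosome genes, 75 genes of oxidative phosphorylation, 13 genes of the mitochondrial genome, 56 of complement and coagulation, 19 apolipoproteins, 15 of bile acid metabolism, 27 of the Atf4 and unfolded protein response, 15 heat shock genes, 17 of the cell cycle, 16 of growth hormone and insulin signalling, 22 male-biased and 12 female-biased genes. At an unadjusted p with the fold threshold the counts in these lists ran from 0, for bile acid metabolism, growth hormone and insulin signalling and the mitochondrial genome, to 7, for the Rab, lysosome and Atf4 lists. With list size, these were 7 of 53 Rab, 7 of 37 lysosome and 7 of 27 Atf4 genes, beside 13.2% of all genes tested. The cell cycle list had 6 of 17, with a median log2 fold change of -0.52 and 13 of 17 negative. DESeq2's Wald test called 3 lysosome genes, 2 male-biased genes, and 1 gene each of oxidative phosphorylation, the apolipoproteins and the Atf4 list. That test called 565 of all 13587 genes tested.

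Levels of the most abundant members overlapped between the groups in most of these lists. Rab7 was at 188 to 249 CPM in ff;ff and at 173 to 222 CPM in Rab30 Ctrl, Apob at 5030 to 8892 against 5219 to 7334 CPM, C3 at 4967 to 8411 against 5159 to 7314 CPM, and mt-Co1 at 19914 to 37517 against 19538 to 31727 CPM. Ctsl, a lysosomal protease, did not overlap, at 1371, 1348, 3288 and 1176 CPM in ff;ff and at 613, 651, 678 and 860 CPM in Rab30 Ctrl (log2 fold change 1.34, adjusted p = 0.0684 from edgeR), and passed with DESeq2's Wald test, with no filter on low counts and in a fit over all 24 libraries. Gadd45g, a stress-induced gene of the immediate early list, was at 47.0 to 183 against 8.64 to 23.7 CPM (2.29, adjusted p = 0.0588 from edgeR). It passed without ffff242 (1.69, adjusted p = 0.0398 from edgeR), without ffff248, with DESeq2's Wald test and in a fit over all 24 libraries. The major urinary proteins, near-identical genes of chromosome 4 that share reads, had a median of 1.27 over 18 genes tested, with 12 positive, and 0 passed, with 4 past the unadjusted p and the fold threshold and 2 called by DESeq2's Wald test. Their summed level was 43567, 20464, 16526 and 21905 CPM in ff;ff and 16151, 20832, 5279 and 17315 CPM in Rab30 Ctrl, so that the groups overlapped.

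To see whether the control differences recurred between lines, a second comparison was made with none of these 8 libraries. Livers labelled Rab30L-/- (4 libraries), from the floxed Rab30 line with Alb-Cre, were set against livers labelled Rab30KO (4 libraries), the whole-body knockouts whose wild-type littermates are Rab30 Ctrl. These groups also differ in Alb-Cre and in the tissues that lack Rab30, which cannot be told apart from the line. Both lack Rab30 in hepatocytes by their labels, although counts over the whole Rab30 gene were 10.2 to 26.5 CPM in the former and 5.47 to 17.1 CPM in the latter and do not show the deletion. Here 277 of 13331 genes (2.08%) passed, 136 higher and 141 lower in Rab30L-/-, with between 79 and 407 when 1 library was left out. That count was lower by more than 1.5 times without any of Rab30cff741 (158), Rab30cff978 (173), Rab30cff979 (118), Rab30cff980 (79), KO1 (142) or KO4 (116).

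Of the 129 genes, 119 were tested in the second comparison, and 107 of them (89.9%) had the same sign, against 8409 of the 13147 genes tested in both (64.0%). The share was 92 of 98 for genes lower in ff;ff and 15 of 21 for genes higher. Genes that vary together are not independent in these counts. Of the 33 leukocyte genes picked out above, 32 were tested here and all 32 had a negative log2 fold change. Their sum was 854, 330, 1651 and 475 CPM in KO1, KO2, KO3 and KO4, and 232 to 684 CPM in Rab30L-/-. In all, 6 genes passed in both, 4.65% of the first list and 2.17% of the second, and in all 6 the sign was the same. They were Ifi203 and Ifi207 of the Ifi200 cluster, Treh, Tnfrsf14, a receptor of lymphocytes and epithelia, Id4, an inhibitor of DNA binding, and the pseudogene Gm8893. Between ff;ff and Rab30 Ctrl, the calls of Ifi203, Ifi207 and Treh were kept with each library left out. That of Id4 was lost whichever library was left out, that of Tnfrsf14 without any 1 library but WT951 and WT221, and that of Gm8893 without any 1 but WT221. The call of Gm8893 was also lost with DESeq2's size factors, with limma-voom, with no filter on low counts and with at least 10 counts in every library. The log2 fold change of Rab30L-/- against Rab30KO was -1.25 for Ifi203, -1.72 for Ifi207 and 1.998 for Treh. It was -1.32 for Tnfrsf14, -1.84 for Id4 and -2.40 for Gm8893, beside -1.83, -1.60 and -2.54 in ff;ff against Rab30 Ctrl.

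The same lists were counted in the second comparison. The Ifi200 genes had a median log2 fold change of -1.25 with 2 of 11 passing, the cholesterol genes a median of -0.66 with 6 of 25 lower (1.06% of all genes tested there) and 0 higher, and the Kupffer markers a median of -0.87 with 0 of 12 passing. Idi1 (-2.78) and Sqle (-1.88) were among the 6, and Stard4 (-1.04, adjusted p = 0.0817 from edgeR) was not. All 11 Gbp genes had a negative log2 fold change and 0 passed. The sinusoidal endothelial markers had a median of -0.81, with all 10 negative and 4 of 10 lower past the thresholds. The stellate cell markers had a median of -0.37, with 7 of 10 negative and 1 lower past the thresholds. Rpl34 (-0.10, standard error 0.82) and Rarres1 (-0.03, standard error 0.50), which separated the controls completely, were close to 0 here. The difference between the 2 comparisons did not pass for either gene (adjusted p = 0.123 and 0.108, edgeR).

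**Figure D4:**
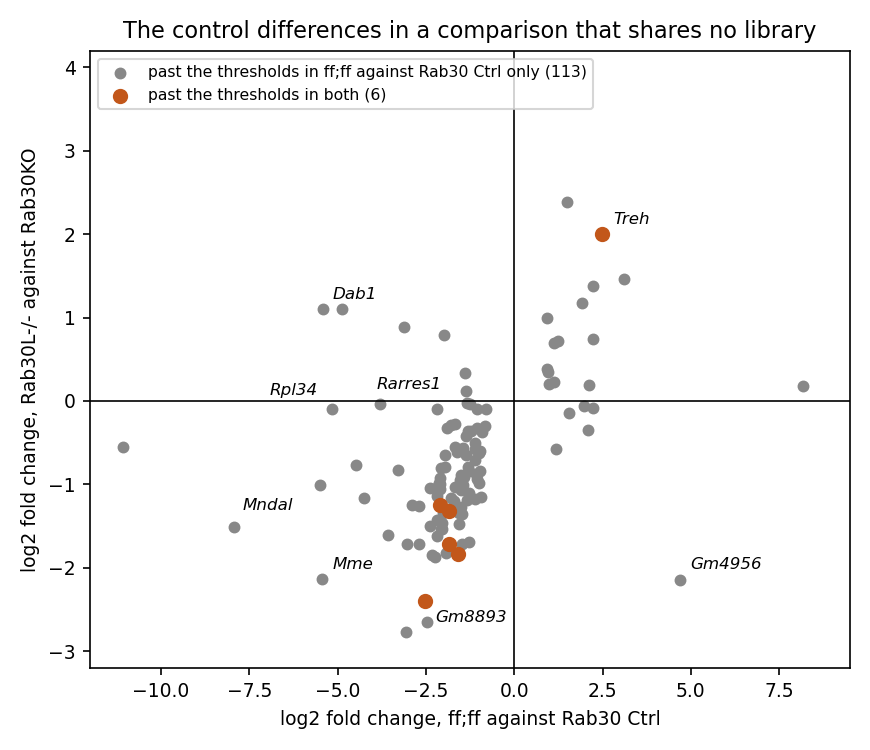
log2 fold changes, as fitted by edgeR, of the 119 genes past the thresholds in ff;ff against Rab30 Ctrl (x axis) that were also tested in Rab30L-/- against Rab30KO (y axis), 4 libraries in each of the 4 groups. Most points lie in the lower left and upper right of the plot, 107 with the same sign, and the 6 orange points passed in both. Fitted values of genes near 0 counts in 1 group have no upper limit and depend on the prior count.

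The difference between the 2 comparisons was tested in 1 fit over the 16 libraries. It passed for 3 of 14304 genes (0.021%), Mndal, Gm4956 and Dab1, all among the 129. Mndal was at 4.70 to 7.63 CPM in Rab30L-/- and at 7.97 to 22.5 CPM in Rab30KO, so that the floxed Rab30 line with Cre had the transcript that was nearly absent from ff;ff. Gm4956, a transcribed pseudogene, was at 10.6, 4.70, 8.50 and 6.15 CPM in ff;ff, at 0.134 to 0.497 CPM in Rab30 Ctrl, at 0.0765 to 0.628 CPM in Rab30L-/- and at 0.703 to 2.85 CPM in Rab30KO.

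The levels in the other 4 groups of the series are given as a description, since those groups differ in genotype. Counts over the whole gene did not show the loss of Rab30 that the label of DKO names, at 102 to 232 CPM. Rab30 was at 121 to 186 CPM in Cpt2L-/-, whose label names no loss of it. The study reports that fasting raises Rab30 above control levels in Cpt2L-/- livers. Both groups lay above all other libraries. Cpt2 was at 97.1 to 125 CPM in DKO and at 94.9 to 165 CPM in Cpt2L-/-, where the label names its deletion, beside the 129 to 142 CPM of ff;ff. These counts do not show either deletion, and the groups are used here by their labels. The sum of the Ifi200 cluster was 13.8, 16.1, 13.5 and 23.3 CPM in DKO, the littermates of ff;ff, and 11.4 to 14.2 CPM in ff;ff, with DKO943 the highest. It was 21.2 to 28.9 CPM in Cpt2L-/-, 26.5 to 47.9 CPM in Rab30L-/- and 49.7 to 117 CPM in Rab30KO, whose range took in the 50.9 to 60.6 CPM of its littermates. Mndal had 0, 0, 1 and 64 counts in DKO, so that DKO943 alone had the transcript (3.13 CPM), and was at 3.64 to 6.83 CPM in Cpt2L-/-. Rpl34 was at 1.75 to 3.91 CPM in DKO, and at 104 to 170 CPM in Cpt2L-/-, 50.5 to 65.0 CPM in Rab30L-/- and 3.23 to 111 CPM in Rab30KO. Adh6-ps1 was at 0 in all libraries of DKO, as of ff;ff. In Rab30KO it had 97, 183, 0 and 363 counts, with KO3 at 0, and it was at 5.43 to 9.12 CPM in Rab30L-/- and 4.85 to 11.3 CPM in Cpt2L-/-. Obp2a was at 2.02 to 8.19 CPM in DKO and at no more than 1.22 CPM in Cpt2L-/- and Rab30L-/-. In Rab30KO it was at 11.7 CPM in KO1 and at 0.0637 to 0.847 CPM in the other libraries, so that KO1 lay above every floxed control.

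In other genes the littermates DKO and ff;ff did not overlap. Rarres1 was at 15.1 to 34.8 CPM in DKO and at 1.49 to 3.98 CPM in their floxed littermates, and Gm4956 at no more than 1.22 CPM in DKO. Sums of the Kupffer markers were 213 to 285 CPM in DKO, 240 to 337 CPM in Cpt2L-/-, 309 to 852 CPM in Rab30L-/- and 375 to 1776 CPM in Rab30KO. Sums of the cholesterol genes were 1080 to 1345 CPM in DKO, 927 to 1167 CPM in Cpt2L-/-, 1540 to 1976 CPM in Rab30L-/- and 1704 to 2812 CPM in Rab30KO. For Ifi200, Kupffer and cholesterol genes alike, the highest median was in Rab30 Ctrl or Rab30KO.

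**Figure D5:**
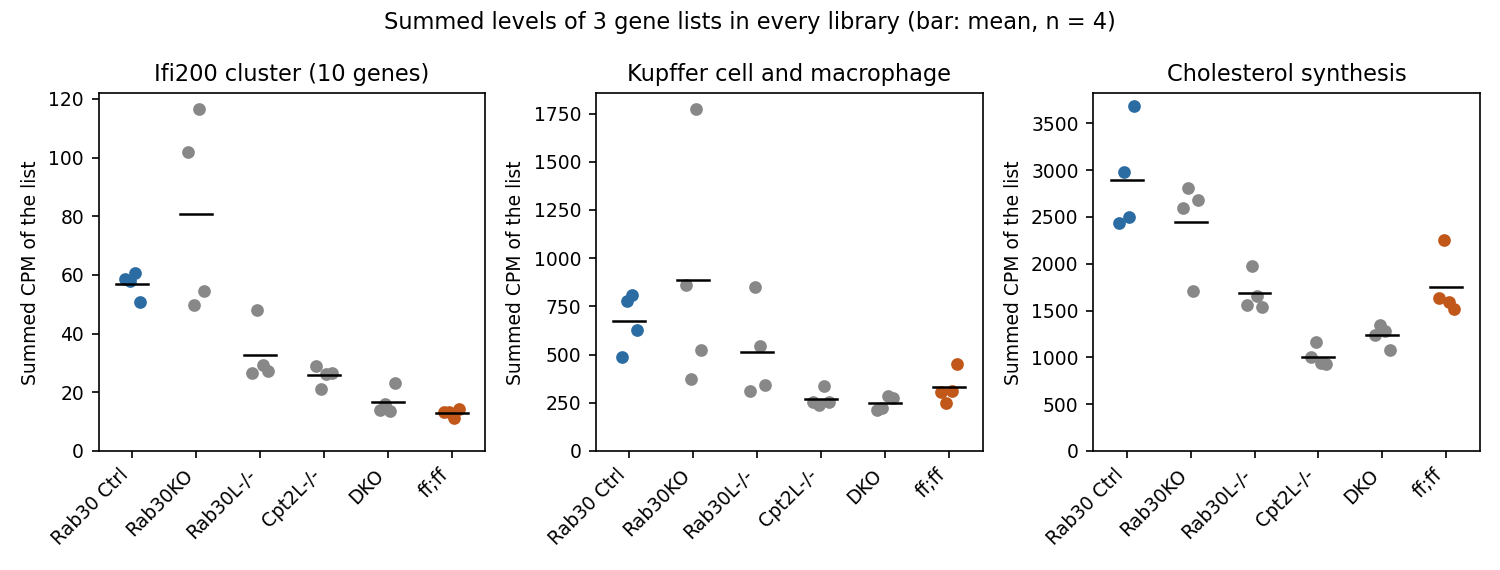
Summed CPM of the Ifi200 cluster (without Ifi27), the Kupffer cell and macrophage markers and the cholesterol genes in each of the 24 libraries, by group, with a bar at the mean (n = 4 each). Rab30 Ctrl (blue) and ff;ff (orange) do not overlap in any of the 3 panels, and Rab30KO spreads most in the Kupffer panel, from 375 to 1776 CPM.

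In some genes 1 library of a control group had at least 100 counts and another had at most 3. The 6 with the highest mean level are given. Ren1, the renin gene, had 895, 1459, 3018 and 0 counts in ff;ff, with ffff248 at 0, and between 505 and 1375 counts in Rab30 Ctrl. Ctse, a cathepsin gene on the same chromosome, had 195, 415, 139 and 1 counts in ff;ff, with the lowest again in ffff248. Corin, a serine protease gene, had 472, 423, 518 and 2 counts in Rab30 Ctrl, with the lowest in WT221. It had 4, 135, 6 and 3 counts in ff;ff, with the highest in ffff240.

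C1s2, a complement protease gene, had 0 counts in WT951 and between 239 and 273 counts in the other wild-type libraries. Camk2b, a kinase gene, had 522, 207, 2 and 0 counts in Rab30 Ctrl and between 402 and 714 in ff;ff. Moxd1 had 357, 38, 1 and 18 counts in ff;ff and was at 0 in all wild-type libraries but WT221. These 6 genes had adjusted p-values from edgeR of between 0.453 and 0.983 between the groups.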

How the data were processed

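Livers of 24 mice in 6 groups of 4 were sequenced, and groups were taken from the genotype labels. The authors deposited raw read counts per gene, whole numbers that were used here as deposited. Per the labels, the submitters' processing notes name HISAT2, DESeq2 and the builds GRCm38 and mm10. The counting tool, annotation release and strand setting are not given in the sources used here. FPKM tables, normalized tables and the tables of the authors' own fold changes and p-values were not used. Counts were fitted with edgeR 4.0.16 in R 4.3.3 (TMM scaling, filterByExpr, quasi-likelihood test, Benjamini-Hochberg adjustment over all genes tested) on the libraries of the groups compared, with thresholds of adjusted p 0.05 and 1.2-fold. limma 3.58.1 and DESeq2 1.42.0 were alternatives. The difference between comparisons was an interaction in 1 fit. Log2 CPM for the variance share and principal components used a prior count of 2.

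Named genes were Rab30 and Cpt2, the 10 highest and 10 lowest protein-coding genes past the thresholds without overlap that averaged 50 or more normalized counts in whichever group was higher, up to 4 per list by smallest p (otherwise the most abundant), those within 5 Mb of Rab30 or Cpt2, those past the thresholds in both comparisons, and genes with at least 100 counts in 1 library of a group and at most 3 in another. Other names were chosen after their values were seen. Members and lists were chosen with earlier results of these data known. Floors of 3 counts cover counting error only. Libraries of a group differed by more than sampling noise and none were identical. Nothing in the labels says whether mice of a group shared a litter, and p-values measure the spread between these samples. Scripts were tested on simulated data. In a simulation of this comparison with 200 genes changed 2-fold, edgeR made 54 calls, 2 of them false, and recovered 52. DESeq2's Wald test made 115 calls, 20 of them false, and recovered 95. Alternatives were other scaling, tests, filters, fold thresholds, a fit over all 24 libraries and leaving out each library. Results for some genes are not reported here.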

Additional observations from a re-analysis of the deposited data

Results flagged for a closer look

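Of 254 sets of 4 libraries examined, in 22 the gap between 1 library and its nearest neighbour, as a share of the group's whole range, was over Dixon's critical value for 4 samples, where chance gives about 1 in 20. In Rab30 Ctrl, WT952 was low for Cyp2c50 (gap share 0.892, 349 CPM against 515 to 535) and high for Gsta4 (0.851, 40.1 against 35.3 to 35.99 CPM). WT281 was high for Gbp8 (0.868, 15.4 against 4.08 to 5.57 CPM) and Bhlhe40 (0.856, 90.5 against 66.3 to 69.8 CPM). WT221 was high for Cyp2c29 (0.834, 1002 against 477 to 564 CPM) and Rpl26 (0.988, 57.7 against 0.559 to 1.22 CPM), and was the wild-type library with Moxd1 (1, 2.88 CPM against 0).

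In ff;ff, ffff238 was high for Cyb561 (0.901), Mup7 (0.833, 12519 against 6777 to 7737 CPM), Moxd1 (0.930, 31.8 CPM) and Serpina1e (0.885, 8811 against 4969 to 5412 CPM), and low for Apoe (0.838, 8998 against 17152 to 18731 CPM). It was also the shallowest of the 8 libraries, and the part of depth in these values was not tested. ffff242 was high for Myom3 (0.908, 5.38 against 3.19 to 3.40 CPM) and Ctsl (0.908). ffff240 was high for Corin (0.971, 8.14 CPM), for Sqle (0.936, 26.6 against 6.66 to 7.94 CPM) and for the sum of the cholesterol genes (0.837, 2252 against 1519 to 1638 CPM). ffff240 also held most of the adipocyte marker sum (0.961, 3.68 against 0 to 0.142 CPM). In 3 genes 1 floxed library had counts and the other 3 had 0, so that the gap share was 1, namely Mndal (ffff242, 0.142 CPM), Ifi213 (ffff248, 0.128 CPM) and Fcrl1 (ffff248, 0.0641 CPM), all under the floor of 3 counts. ffff248 was high for the globin gene Hbb-bs (0.857, 236 against 96.1 to 116 CPM).

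In 3 genes the log2 fold change of Rab30L-/- against Rab30KO differed from that of ff;ff against Rab30 Ctrl by edgeR's test of the interaction. The fitted difference was 6.41 for Mndal (adjusted p = 0.00140, edgeR), 6.51 for Dab1 (adjusted p = 0.00765, edgeR) and -6.84 for Gm4956 (adjusted p = 0.000470, edgeR). For Mndal and Dab1, with at most 2 counts in any floxed control library, the fitted size depends on the prior count and is no bound.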

How the results depend on the processing

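The 129 genes became 322 with limma-voom, 565 with DESeq2's Wald test, 352 with no filter on low counts, 67 with at least 10 counts in every library, 302 in a fit over all 24 libraries and 53 to 177 with 1 library left out. The count was 133 with DESeq2's size factors, 129 without a fold threshold and 118 at 2-fold. The 277 genes of Rab30L-/- against Rab30KO became 1202 with DESeq2's Wald test, 772 with no filter, 791 in the fit over all 24 libraries, 153 at 2-fold and 79 to 407 with 1 library left out. The 3 genes of the difference between comparisons became 12 in the fit over all 24 libraries and 59 with DESeq2's Wald test. The variance share lay between 29.8% and 35.8% with 1 library left out, at 30.005% after a variance-stabilizing transformation and at 44.4% over the 500 most variable genes, each with an exact permutation p of 0.0286, the smallest possible. None of the 129 genes changed direction. The causes of these changes were not tested. No paired analysis was possible because the replicate numbers follow accession order and pair no mice. Genes near the floor of 3 counts have only a bound on their fold.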
